A study of Mus musculus with 4 samples.

Results

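The 10 genes described here serve glutathione supply, thioredoxin and peroxide handling, or, for Nqo1 and Hmox1, detoxification. They are widely used as targets of NRF2, the main transcription factor of the antioxidant response. They were taken by symbol from a comparison of neural stem cells that carried an shRNA against Foxp1 with cells that carried a scrambled shRNA. All 10 symbols occurred once among the 26815 entries of the authors' deposited table, and all 10 were among its 15315 tested entries. The cells were bought as cortical stem cells (strain CD-1, stage E14.5) and kept as an adherent layer with EGF and bFGF. All of them had taken up a lentivirus and were selected with puromycin at 0.5 µg/mL. The control vector was SHC002 and the Foxp1 vector was pLKO.1_sh_ex15, so the knockdown rests on a single hairpin. Poly(A) RNA of 4 libraries was sequenced, 2 for each shRNA, with the duplicates described as different passages.

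The authors' table compares 2 pooled conditions, q2 and q1, and no label or header says which of them received which shRNA. Directions are therefore given as q2 against q1. Foxp1 itself, the targeted forkhead factor on chromosome 6 (98925342 to 99435345), was at a log2 fold change of -2.03 per the authors' deposited table, or 4.09-fold lower in q2 (Cuffdiff q = 0.00162), and this value was not used to name the conditions. No value per library was used here, so neither the spread between libraries nor the read depth can be printed. Errors are instead those implied by the authors' p-value: the standard error (SE) that gives that p under a normal law, with a 95% interval from it. A gene is called where the Cuffdiff q was under 0.05. What spread the Cuffdiff p-value measures was not established, and it may be technical.

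Glutathione is a small thiol made in cells from glutamate, cysteine and glycine, and cysteine usually limits its supply. Under oxidative or electrophilic stress the adaptor KEAP1 no longer directs NRF2 to degradation, and NRF2 with a small MAF partner binds antioxidant response elements near its target genes. In brain tissue this programme is best known from astrocytes, which release glutathione precursors for neurons.

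Sequences before the start of transcription are shown for the called members, Slc7a11 and Nqo1, and for a pair that was not called, Prdx1 and Srxn1, because they differ in the motifs that such genes are known for. Each is the 250 bases before a RefSeq start (GRCm38.p6), written 5′ to 3′ on the strand of the gene: chr3:50443614-50443863 on the minus strand for Slc7a11, chr8:107403206-107403455 on the minus strand for Nqo1, chr4:116685349-116685598 on the plus strand for Prdx1 and chr2:152105274-152105523 on the plus strand for Srxn1. Capitals mark a match on either strand to the antioxidant response element core TGACNNNGC, the AP-1 motif TGANTCA, the forkhead core TGTTTAC or the ATF4 element TGATGNAA.
Slc7a11: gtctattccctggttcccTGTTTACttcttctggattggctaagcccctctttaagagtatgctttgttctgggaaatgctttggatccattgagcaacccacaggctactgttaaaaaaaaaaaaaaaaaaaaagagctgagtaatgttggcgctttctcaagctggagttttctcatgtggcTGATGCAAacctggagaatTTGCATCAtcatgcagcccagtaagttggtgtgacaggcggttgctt
Nqo1: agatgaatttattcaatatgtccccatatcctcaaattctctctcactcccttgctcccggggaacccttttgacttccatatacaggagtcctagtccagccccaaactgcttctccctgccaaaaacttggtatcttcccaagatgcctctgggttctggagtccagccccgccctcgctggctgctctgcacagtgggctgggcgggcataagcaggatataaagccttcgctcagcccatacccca
Prdx1: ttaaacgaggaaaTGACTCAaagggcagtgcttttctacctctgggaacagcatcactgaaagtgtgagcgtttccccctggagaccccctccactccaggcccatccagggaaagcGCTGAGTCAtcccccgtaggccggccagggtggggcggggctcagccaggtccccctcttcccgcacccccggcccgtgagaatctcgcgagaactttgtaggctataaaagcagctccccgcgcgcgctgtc
Srxn1: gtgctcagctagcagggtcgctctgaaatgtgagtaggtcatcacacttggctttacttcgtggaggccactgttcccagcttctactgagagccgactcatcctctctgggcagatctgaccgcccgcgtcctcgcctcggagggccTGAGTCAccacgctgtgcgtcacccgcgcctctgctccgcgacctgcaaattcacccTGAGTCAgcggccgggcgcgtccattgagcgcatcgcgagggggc

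Of the 10 members 7 had such a window of 300 bases, 250 before and 50 after the start, with 3 windows for Txnrd1; Gclc, Gsr and Hmox1 had none. The antioxidant response element core was found in the windows of Gclm, Prdx1, Srxn1 and Txnrd1, 4 of 7, and in 14.0% of the 27025 genes with a window. In Prdx1 it lies at -133 on the reverse strand and shares 7 bases with an AP-1 match at -131. The match in Srxn1 lies at 29 bases after the start, outside the stretch shown, and the AP-1 motif was found 2 times before its start, at -102 and -45. The core searched for requires TGAC, so TGAGTCAGC at -45 in Srxn1 was counted as AP-1 only. AP-1 was found in Prdx1 and Srxn1 only among these 7 genes, and in 8.97% of all genes with a window. The Slc7a11 window held the forkhead core at -232, found in 4.05% of genes, and the ATF4 element at -66 and on the reverse strand at -47, found in 4.51% of genes. Neither Slc7a11 nor Nqo1, the called members, held the antioxidant response element core or AP-1 in these windows. The same was true of Gpx1, which was not called. These are matches of letters only, and a window without a match says nothing of sites elsewhere.

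**Figure D1:**
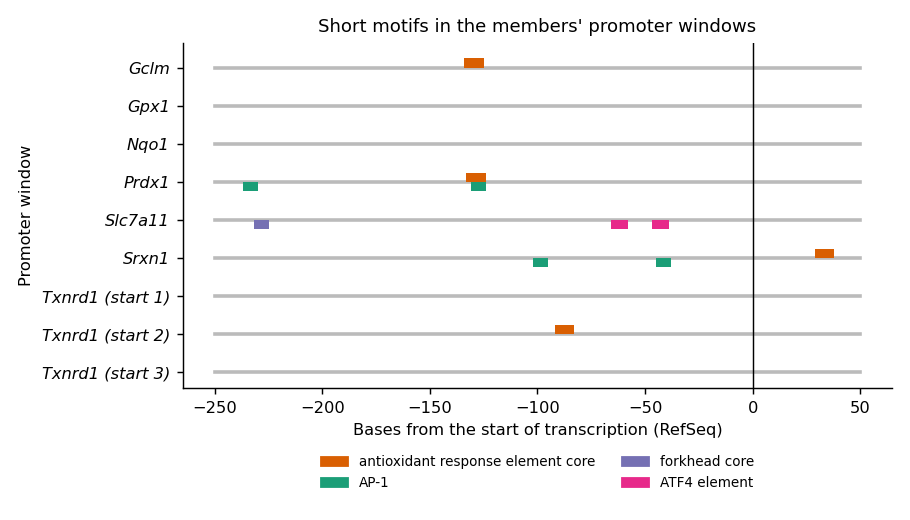
Matches to 4 short motifs (coloured blocks) in the RefSeq promoter windows of 7 members, 9 windows in all; the x axis is the distance in bases from the start of transcription and each grey line is 1 window. Orange blocks, the antioxidant response element core, appear in Gclm, Prdx1, Srxn1 and 1 of 3 Txnrd1 windows, while Slc7a11 holds the forkhead core at -232 and the ATF4 element at -66 and -47.

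Among the members Nqo1 was called higher and Slc7a11 lower in q2, and the other 8 were not called. These 2 of 10 stand beside 7.63% of all tested entries called, 4.24% higher and 3.39% lower. The members and the lists below were chosen with earlier results of these data known, so such shares are descriptions. At an unadjusted p under 0.05 there were 4 members, Nqo1, Gsr and Hmox1 on the higher side and Slc7a11 on the lower, against 19.2% of tested entries. The fold changes went both ways, 5 higher and 5 lower, with a median log2 fold change of -0.02, and that of all tested entries was -0.05. The median absolute log2 fold change was 0.27 for the members and 0.32 for all tested entries. With the trend between log2 fold change and transcript GC content removed, 8 were higher and 2 lower, with a median of 0.04, so the split of signs depends on that correction. No test of the list as a whole was made. Both calls rest on the authors' p-value: with p taken from their statistic under a normal law neither Nqo1 nor Slc7a11 passed (Benjamini-Hochberg q = 0.136 and 0.216).

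**Figure D2:**
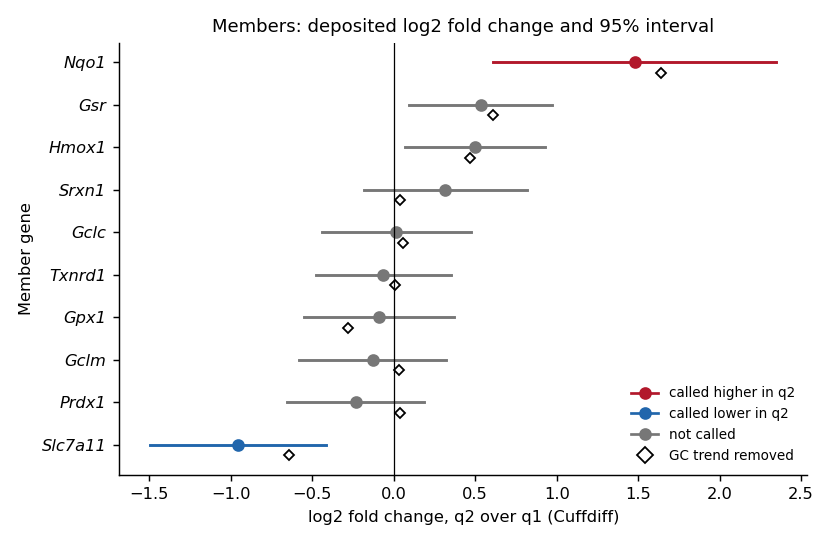
The 10 members (y axis) by their log2 fold change, q2 over q1, per the authors' deposited table (x axis), with the 95% interval implied by the authors' p-value as a line. Red is called higher in q2 (Nqo1, 1.48), blue called lower (Slc7a11, -0.96) and grey not called; open diamonds give the value after the trend with transcript GC content was removed, -0.64 for Slc7a11 and 1.64 for Nqo1.

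Glutathione supply starts with cystine uptake. Slc7a11 encodes xCT, the transporting subunit of the cystine/glutamate antiporter, which in the brain is found largely in astrocytes. It was 1.94-fold lower in q2 per the authors' deposited table (log2 fold change -0.96, SE 0.275, 95% interval -1.49 to -0.42, Cuffdiff p = 0.0005, q = 0.011). Of tested entries with a finite log2 fold change, 12.6% had a larger absolute value. With the trend between log2 fold change and transcript GC content removed, Slc7a11 stood at -0.64 and was no longer called (Cuffdiff p read again and adjusted by Benjamini-Hochberg, q = 0.163); at 41.9% it had the lowest GC content of the members. Slc3a2, named here as the heavy chain that carries xCT to the membrane, was at -0.23 per the authors' deposited table (Cuffdiff q = 0.61) and was not called.

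Glutamate-cysteine ligase, the rate-limiting enzyme of glutathione synthesis, consists of the catalytic subunit Gclc and the modifier subunit Gclm. Neither was called: Gclc stood at a log2 fold change of 0.02 (95% interval -0.44 to 0.47, Cuffdiff q = 0.979) and Gclm at -0.13 (95% interval -0.58 to 0.32, Cuffdiff q = 0.834) per the authors' deposited table. As ratios of q2 to q1, these intervals run from 0.737 to 1.39 for Gclc and from 0.668 to 1.25 for Gclm. A change of the size seen in Nqo1 lies outside both, and a smaller one within these limits could not be seen. Gss, named here as the enzyme of the second step, was at 0.09 per the authors' deposited table (Cuffdiff q = 0.911). Gsr, glutathione reductase, which returns oxidised glutathione to its reduced form with NADPH, was 1.45-fold higher in q2 per the authors' deposited table (log2 fold change 0.53, 95% interval 0.10 to 0.97). Its unadjusted Cuffdiff p was 0.017 and its q 0.137, so it was not called. Within glutathione supply, then, the cystine transporter was called and the ligase subunits and the reductase were not; whether their fold changes differ from each other was not tested.

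Nqo1 and Hmox1 are the detoxifying enzymes of the group. Nqo1 encodes a quinone reductase that is among the most used readouts of NRF2 activity. It was 2.79-fold higher in q2 per the authors' deposited table (log2 fold change 1.48, SE 0.443, 95% interval 0.61 to 2.35, Cuffdiff p = 0.00085, q = 0.0165). Only 5.42% of tested entries with a finite log2 fold change had a larger absolute value. After removal of the GC trend Nqo1 was at 1.64 and still called (q = 0.0054 by the same adjustment). Its SE was the largest of the 10, so the size of the rise is the least precisely known, between 1.53- and 5.09-fold. Hmox1, heme oxygenase, which breaks heme down to biliverdin, iron and carbon monoxide, was 1.41-fold higher per the authors' deposited table (log2 fold change 0.50, 95% interval 0.07 to 0.93). With an unadjusted Cuffdiff p of 0.0238 and a q of 0.169 it was not called.

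None of the thioredoxin and peroxidase members was called. Txnrd1, cytosolic thioredoxin reductase, was at a log2 fold change of -0.06 (95% interval -0.48 to 0.35) per the authors' deposited table. Srxn1, sulfiredoxin, which repairs over-oxidised peroxiredoxins, was at 0.32 (95% interval -0.18 to 0.82). Its substrate Prdx1, a peroxiredoxin that reduces hydrogen peroxide with electrons from thioredoxin, was at -0.23 (95% interval -0.65 to 0.19) per the authors' deposited table. Gpx1, the cytosolic glutathione peroxidase, was at -0.09 (95% interval -0.55 to 0.37). The Cuffdiff q-values were 0.922 for Txnrd1, 0.549 for Srxn1, 0.611 for Prdx1 and 0.895 for Gpx1. All 4 intervals include 0 and lie between log2 values of -1 and 1, so smaller changes in either direction could not be told from none. With the GC trend removed Srxn1 moved to 0.04, Txnrd1 to 0.01, Prdx1 to 0.04 and Gpx1 to -0.28, and Gclm, of the ligase, to 0.03. Txnrd1, Prdx1 and Gclm thereby changed sign, and none of these 5 was called.

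In order of fold change the members ran from Slc7a11 through Prdx1, Gclm, Gpx1, Txnrd1, Gclc, Srxn1, Hmox1 and Gsr to Nqo1. The 95% intervals of all 9 adjacent pairs in that order overlapped. The interval of Slc7a11 lay wholly below those of 4 other members, and the interval of Nqo1 wholly above those of 6. Comparisons between genes in 1 table are descriptions, since the fit tests each gene between conditions and not genes against each other.

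**Figure D3:**
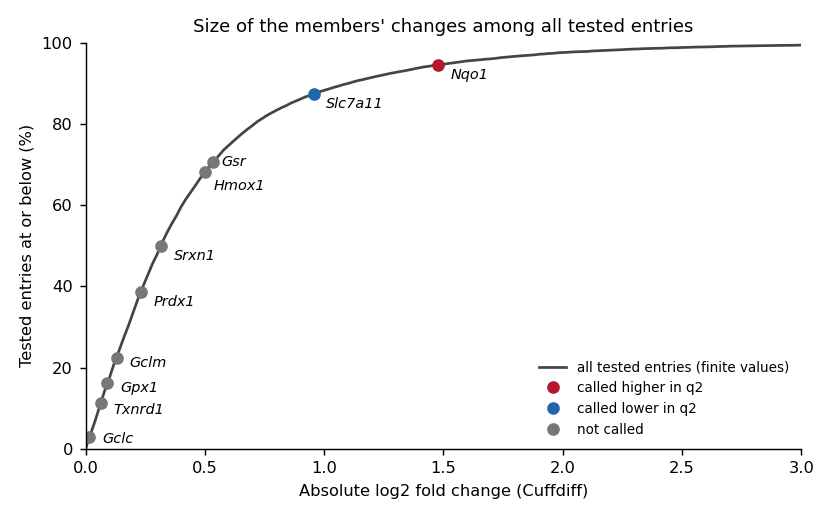
Absolute log2 fold change (x axis) against the percentage of tested entries at or below that size (y axis; grey curve, entries with a finite value), with the 10 members placed on the curve. Nqo1 and Slc7a11, with 5.42% and 12.6% of entries above them, are the called members, and the other 8 lie at an absolute log2 fold change of 0.53 or less.

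The members lie on 6 chromosomes, with 3 on chromosome 8, 2 each on chromosomes 3 and 9, and 1 each on chromosomes 2, 4 and 10. Their transcripts had a GC content of 41.9% to 60.3% (median 50.1%, against 50.6% for tested genes). For 6 members, Gclc, Nqo1, Hmox1, Srxn1, Prdx1 and Gpx1, the authors' locus held no other GENCODE gene. The loci of Slc7a11, Gclm, Gsr and Txnrd1 each overlapped at least 1 other annotated gene, among them the protein-coding gene Eid3 inside Txnrd1 (chromosome 10, 82833951 to 82897724). Eid3 was entered at that same locus and was not tested by the authors. Whether reads were assigned by strand is not given in the sources used here. In each of these loci at least 1 overlapping gene lies on the strand of the member, where strand would not separate the reads. Reads of such overlapping genes therefore cannot be told apart here from those of the member. Slc7a11 (chromosome 3, 50364936 to 50443613) overlaps an unconfirmed GENCODE transcript model on its own strand. The locus of Nqo1 (chromosome 8, 107388225 to 107403205) is its own.

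The same question was put to 116 other redox genes in 8 lists, of which 110 were tested. Of these, 1 was called higher and 7 lower in q2, 7.27% in all, beside the 7.63% of all tested entries. Tested genes with a symbol of their own, the closer background, had 1089 of 12159 called, 615 higher and 474 lower. Their median log2 fold change was -0.06. At an unadjusted Cuffdiff p under 0.05 there were 23 of these 110 genes, 5 higher and 18 lower, beside 19.2% of all tested entries. How all tested entries split by direction at that threshold was not computed. Removing the GC trend left 1 gene called higher and 4 lower. Gpx8, Cp and Aldh1l2 then stood at -0.60, -0.47 and -0.66 and had lost the call. With p taken from the statistic under a normal law 3 of the 8 were called, Gstt3, Gstt1 and Prdx6. With fold changes centred on the median of all tested entries, Aldh1l2 and Cp were not called.

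Of 10 tested regulators of the pathway, 0 were called by Cuffdiff and 0 had an unadjusted p under 0.05, with a median log2 fold change of 0.06. Among all tested entries these shares were 7.63% and 19.2%, so 0 calls in a list of this size says little. Nfe2l2, which encodes NRF2, was at 0.04 and Keap1 at 0.01 per the authors' deposited table. The largest statistics belonged to Sqstm1, an autophagy receptor that binds KEAP1, at 0.41 (Cuffdiff q = 0.282) and to Bach1, a repressor at antioxidant response elements, at -0.43 (Cuffdiff q = 0.291). These are transcript values, and NRF2 is regulated mainly as a protein.

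Among genes of glutathione synthesis and breakdown 0 of 11 tested passed the Cuffdiff threshold, 2 had an unadjusted p under 0.05 and the median was -0.23. All tested entries had 7.63% called and 19.2% under that p. Slc1a5, a neutral amino acid transporter, was at 0.85 per the authors' deposited table, just short of a call (Cuffdiff q = 0.0506), and its relative Slc1a4 at -0.45 (Cuffdiff q = 0.228). Slc1a5 was called where only entries with a single symbol were adjusted and where fold changes were centred on the median of all tested entries, but not with the GC trend removed (0.78, Benjamini-Hochberg q = 0.0868) or under the normal law (Benjamini-Hochberg q = 0.428). The glutathione transferases and exporters held the largest differences of all redox lists. Gstt3 and Gstt1, theta-class transferases that join glutathione to electrophiles, were 5.70- and 3.92-fold lower in q2 per the authors' deposited table (log2 fold change -2.51 and -1.97, both Cuffdiff q = 0.00162). Both stayed called with the GC trend removed. The other 16 tested members of that list were not called, and its median was -0.12. Gstt1 and Gstt3 are adjacent related genes. Their sequences were not compared, and how the authors' counting treated reads that match several genes is not given in the sources used here.

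Peroxidases, catalase and superoxide dismutases had 1 of 16 called higher and 2 lower, with a median of -0.15. Of all tested entries 4.24% were called higher and 3.39% lower. Prdx6, a peroxiredoxin that uses glutathione and repairs oxidised phospholipids, was 2.01-fold lower in q2 per the authors' deposited table (Cuffdiff q = 0.00162). Gpx8, a peroxidase of the endoplasmic reticulum membrane, was at -0.87 (Cuffdiff q = 0.00527), and the secreted superoxide dismutase Sod3 at 0.85 (Cuffdiff q = 0.00918), per the authors' deposited table. Of 14 thioredoxin and glutaredoxin genes 0 were called by Cuffdiff and 4 had an unadjusted p under 0.05. The shares over all tested entries were 7.63% and 19.2%. Glrx2, a mitochondrial glutaredoxin, was at -0.63 (Cuffdiff q = 0.1) and Txn1, thioredoxin itself, at -0.55 (Cuffdiff q = 0.122) per the authors' deposited table.

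NADPH supply genes, which feed both reductases, had 1 of 13 called, Aldh1l2, a mitochondrial folate enzyme that yields NADPH, at -0.73 per the authors' deposited table (Cuffdiff q = 0.0345). Idh1, the cytosolic isocitrate dehydrogenase, was at -0.55 and not called (Cuffdiff q = 0.0894). Beside the counts of this paragraph, 7.63% of all tested entries were called, 4.24% higher and 3.39% lower. Heme and iron genes had 2 of 17 called, both lower. These were Mt3, the metallothionein of the brain, at -0.88 (Cuffdiff q = 0.00292), and Cp, the copper-containing ferroxidase ceruloplasmin, at -0.79 (Cuffdiff q = 0.0329), per the authors' deposited table. Among 11 quinone and aldehyde reductases other than Nqo1, 0 passed the Cuffdiff threshold and 2 had an unadjusted p under 0.05. The latter share was 19.2% over all tested entries. Akr1b3 was at 0.55 (Cuffdiff q = 0.11) and Aldh3a2 at -0.50 (Cuffdiff q = 0.174) per the authors' deposited table.

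**Figure D4:**
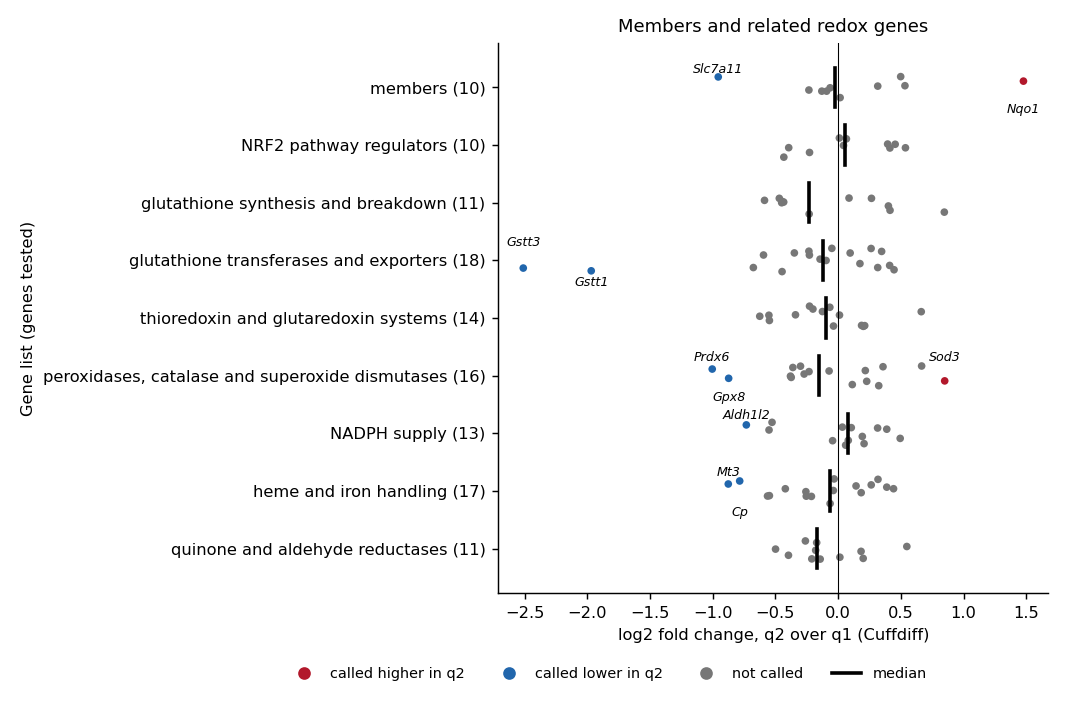
The 10 members and 8 related lists (y axis, with the number of tested genes) by log2 fold change, q2 over q1, per the authors' deposited table (x axis). Each point is 1 gene, in red where called higher in q2, in blue where called lower and otherwise in grey; the black bars, at medians between -0.23 and 0.08, stay near 0. Nqo1 and Sod3 are the genes called higher, and Gstt3 and Gstt1 lie farthest to the left.

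Markers of cell types that a neural culture can hold differed between the same conditions. Of 12 astrocyte markers 8 were called lower in q2 and 1 higher, with a median log2 fold change of -0.87. Of 7 tested oligodendrocyte lineage markers 3 were called lower and 1 higher, and Sox10 was not tested. Of 5 tested fibroblast or mesenchymal markers 4 were called higher, Acta2, Fn1, Col5a1 and Fbn1, and 0 lower. Col1a1 was not called, and the other 4 of that list, Col1a2, Col3a1, Dcn and Lum, were not tested. Among all tested entries 7.63% were called, 4.24% higher and 3.39% lower. Of 6 tested neuron markers 1 was called higher and 1 lower, with a median of -0.13, and 3 others were not tested. Neural stem cell and radial glia markers were split, 2 higher and 2 lower of 10 tested; Prom1 of that list was not tested. Of the microglia list 2 of 7 were tested and of the endothelial or pericyte list 1 of 6, and Cuffdiff called 0 in each, with 0 below an unadjusted p of 0.05. The part of these markers in the values of Slc7a11, Nqo1 and the other redox genes was not tested. In such bulk samples, fewer cells of a type and less RNA per cell cannot be told apart.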

How the data were processed

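Poly(A) RNA of 4 libraries, 2 per shRNA, was measured and compared as deposited. The submitters' processing notes name build mm10 (GRCm38), Cuffdiff, Cufflinks 2.2.1 and TopHat2 2.0.9; annotation, filters and strand handling are not stated in the sources used here. The authors deposited log2 fold changes of q2 over q1, a test statistic (a score) and p-values with q-values, per the file headers. Adjusting p over the tested entries by Benjamini-Hochberg gave back all 15315 q-values (relative tolerance 0.001). The smallest p was 5e-05. No group could be matched to the 2 columns of per-condition values, which were left out, so depth and its precision are unknown. Starts were converted to count from 1.

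Calls across all genes are the authors' Cuffdiff calls. SE is the absolute log2 fold change over the normal quantile of p. Named genes were Foxp1, the members, every called gene of each list and, where fewer than 2 were called, those with the largest statistic up to 2; genes named for a role are said to be. Members and lists were chosen with earlier results of these data known. Transcript GC content came from GENCODE M21 for 11629 of 12159 genes with a symbol of their own (95.6%), and medians in 50 bins were subtracted; the error was taken from p, or from the statistic where that was under 0.5 or p was smallest. Promoters came from RefSeq (GRCm38.p6). The re-adjustment was tested on simulated data. Tools were Python 3.11.15, matplotlib 3.10.9, numpy 2.4.6, pandas 2.3.3 and scipy 1.17.1. Other settings tried were q thresholds of 0.01 and 0.1, an absolute log2 fold change of at least 1, p from a normal law, centring, GC correction and single-symbol entries.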

Additional observations from a re-analysis of the deposited data

How the results depend on the processing

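Of the 2 calls among the members, 0 were left at a q under 0.01 and 0 where p was taken from the statistic under a normal law (Benjamini-Hochberg q = 0.216 for Slc7a11 and 0.136 for Nqo1). With an absolute log2 fold change of at least 1, or with the GC trend removed, 1 was left, Nqo1. The 8 calls of the wider lists became 3 with that minimum, 3 under the normal law and 5 with the GC trend removed. The 1168 calls of all tested entries became 667 at q under 0.01, 687 with the minimum and 457 under the normal law. The normal quantile of the authors' p was a median of 1.42 times their statistic (quartiles 1.40 and 1.43), which is by construction why the normal law gives fewer calls. With errors taken from the statistic, 2 members in place of 4 had an interval without 0. GC removal turned the sign of Gclm to 0.032, Txnrd1 to 0.01 and Prdx1 to 0.038, none of them called; the cause was not tested. Of 80 member values under 8 alternatives, 71 kept sign and side of the threshold, and 3 turned sign. The other 6, all of Slc7a11 or Nqo1, lost a call. A stricter q or a minimum size could not add a call to the 8 members without one, so part of the 71 was fixed beforehand. A looser q, centring, single-symbol entries and, chosen after seeing the data, genes with a GC value kept 2 member calls. Before the start alone, 3 members held the antioxidant response element core in place of 4. No paired analysis was possible because no value per library was used, and for the same reason no replicate could be left out.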

Other observations

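The low values of Gstt3 and Gstt1 had a neighbour. Within 200 kb on either side of this pair (chromosome 10, Gstt3 from 75774122 and Gstt1 to 75798584) the authors' table held 17 entries with a symbol, of which 8 were tested. The 3 called among them, Ddt, Gstt3 and Gstt1, follow each other in that order along the chromosome, and all were lower in q2. Of all tested entries 7.63% were called, and 3.39% were called lower. The stretch was drawn around Gstt3 and Gstt1 because they were called, so only Ddt adds to them. Ddt, which encodes D-dopachrome tautomerase, was at -0.88 per the authors' deposited table (Cuffdiff q = 0.00719) and at -0.96 with the GC trend removed (Cuffdiff p read again and adjusted by Benjamini-Hochberg, q = 0.00249). Ddt was not called where p was taken from the statistic under a normal law (Benjamini-Hochberg q = 0.196), while Gstt3 and Gstt1 were. The tested genes on both sides of this run were not called: Cabin1 was at 0.19 and Mif, a relative of Ddt, at 0.47 (Cuffdiff q = 0.716 and 0.19) per the authors' deposited table. Gstt4 and Gstt2 were not tested. This run was noticed after its values were seen.

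The 3 members with the highest log2 fold changes, Nqo1, Gsr and Hmox1, all lie on chromosome 8, which was also noticed after the values were seen. The 801 tested entries of that chromosome had a median log2 fold change of 0.01 and 7.62% called, 36 higher and 25 lower. Around Nqo1, the tested neighbours within 200 kb were not called, with Nfat5 at -0.05 and Nob1 at 0.25 per the authors' deposited table.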
